A study of Mus musculus with 6 samples.

Results

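The tumour necrosis factor (TNF) superfamily was read out on 6 Affymetrix mouse expression arrays of sorted dermal fibroblasts. Its members were taken by gene symbol: every probe set that names a single gene whose symbol starts with Tnfsf or Tnfrsf, or that is one of Tnf, Lta, Ltb, Ltbr, Cd40, Cd40lg, Fas, Fasl, Cd27, Cd70, Ngfr, Eda and Edar. This gave 69 probe sets for 40 of the 18193 genes on the array, namely 14 ligand genes, 25 receptor genes and Tnfsf13os, an opposite-strand transcript that is neither. Tnfsf12, Tnfsf13, Tnfsf15, Tnfsf18 and Tnfrsf26 were not analysed here. Cancer-associated fibroblasts (CAF, 3 arrays) came from visibly dysplastic ears of male K14-HPV16 mice aged 4 months, whose human papillomavirus transgene is driven by the keratin 14 promoter of basal keratinocytes, so the fibroblasts themselves are not where the transgene is targeted. Normal dermal fibroblasts (NDF, 3 arrays) came from normal ears of male non-transgenic FVB/n mice of the same age. In both groups cells were sorted for the surface receptor PDGFRα from ears of 15 mice per genotype, and the RNA was amplified once. The labels call the arrays of a group biological repetitions without saying whether each was its own pool of mice, so the p-values cover just the spread among these arrays, part of which may be technical.

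TNF superfamily ligands are mostly trimeric membrane proteins that can be shed, and they cluster their receptors on the target cell. Receptors with a cytoplasmic death domain recruit adaptors such as TRADD and FADD and can start apoptosis, receptors without one bind TRAF adaptors, and both routes can activate NF-κB, while decoy receptors bind ligand and give no signal. In skin the family is known for inflammation, for T cell costimulation, for dendritic cell survival through RANKL, and for hair follicle formation through ectodysplasin. The series title asks about NF-κB-dependent inflammation, and TNF receptors are among the main entries to that pathway.

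Values are log2 intensities as deposited. Array medians lay between 4.73 and 4.87, and the number of arrays limits the precision. CAF replicate 3 stood apart, with correlations of 0.913 to 0.932 to the other 5 arrays, against 0.960 to 0.983 among those. Among the superfamily genes it was the CAF array farthest from the CAF median for 20 of 40, or 50%, where the share of all genes was 57.9%, so results are also given without it. As a description of dim probe sets, a level of 3.86 was taken, the 95th percentile of 44 olfactory receptor probe sets. Both group means of 9 superfamily genes, or 22.5%, were at or under it, against 19.9% of all genes. In bulk samples fewer cells of a type and less RNA per cell cannot be told apart.

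The sorted cells carried their defining fibroblast transcripts at high levels on every array. Pdgfra, the sort marker, had 12.66, 12.45 and 12.50 on the CAF arrays, against 12.30, 12.47 and 12.60 on the NDF arrays. Of the 10 fibroblast markers measured, 2 were higher and 8 lower in CAF, with a median difference of -0.19, and none passed the test. Col1a2 (-0.52, limma adjusted p = 0.402) and Col3a1 (-0.20) had all CAF arrays below all NDF arrays. Markers of other cells were also present. Of 9 such lists, 6 had a higher mean level on every CAF array than on any NDF array, while the B cell, Schwann cell and pericyte lists overlapped, as the plot of marker lists shows. The mean level of 14 macrophage and dendritic cell markers ranged from 6.76 to 7.74 in CAF and from 4.94 to 5.43 in NDF, with 13 of 14 higher in CAF, 3 of them past the test, and Itgam at or under the olfactory level in both. That of 13 T and NK cell markers ranged from 4.72 to 5.42 in CAF and from 4.36 to 4.43 in NDF, with 9 of 13 higher, 1 past the test, and Klrd1 and Ncr1 at or under the olfactory level. That of 11 neutrophil markers ranged from 6.61 to 7.60 in CAF and from 3.94 to 4.69 in NDF, with 9 of 11 higher, 3 past the test, and Mpo, Elane and Camp at or under it. That of 14 keratinocyte markers ranged from 7.98 to 9.31 in CAF and from 6.77 to 6.98 in NDF, with 13 of 14 higher and 2 past the test. That of 12 endothelial markers ranged from 6.63 to 7.67 in CAF and from 5.19 to 5.52 in NDF, with 11 of 12 higher and 1 past the test. The 9 mast cell markers were less apart, with mean levels of 4.97 to 6.59 in CAF and 4.47 to 4.89 in NDF. Of these markers 8 were higher in CAF, but just 3 had all CAF arrays above all NDF arrays, and none passed. The part of these other cells in the results below was not tested.

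**Figure D1:**
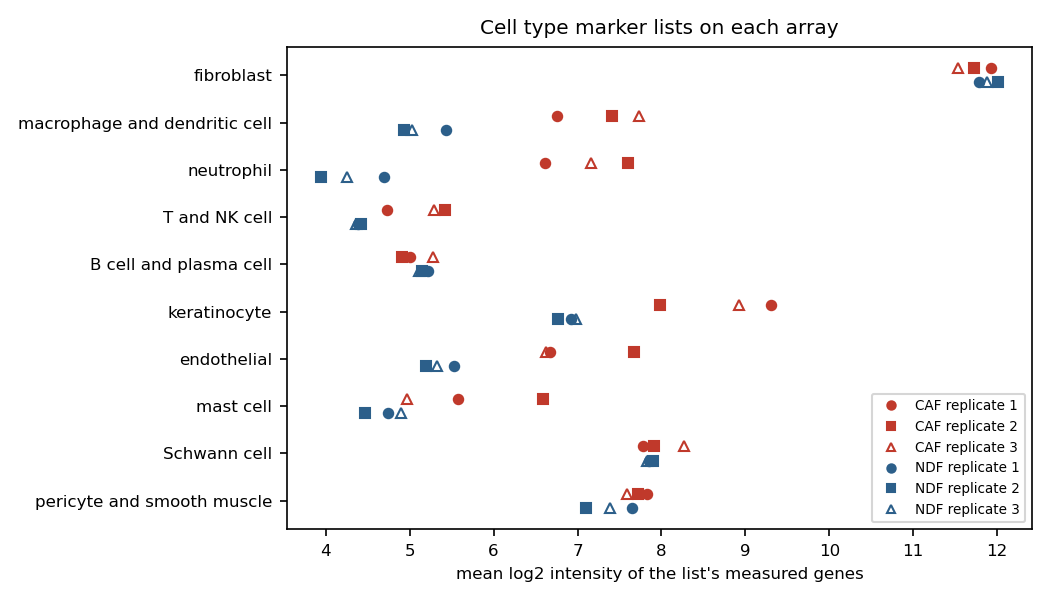
Mean log2 intensity (x axis) of the measured genes of 10 cell type marker lists (rows) on each array, with CAF points in red above NDF points in blue. The fibroblast list overlapped between the groups, while the macrophage, neutrophil, T and NK cell, keratinocyte, endothelial and mast cell lists were higher on all 3 CAF arrays.

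Of the 40 superfamily genes, 1 rose in CAF and none fell at a limma adjusted p under 0.05 over all genes, where 0.489% of all genes rose, 0.0275% fell and 0.517% did either. The gene was the ligand Tnfsf11. At an unadjusted p under 0.05, 6 were higher and none lower, which is 15% of the members, against 4.93% of all genes higher, 4.02% lower and 8.95% either way. All 3 CAF arrays lay above all 3 NDF arrays for 8 genes, or 20%, and below for 3, or 7.5%, where the shares of all genes were 6.78% above, 8.66% below and 15.4% either way. Besides the genes described below, Fasl was among those below. Without CAF replicate 3, a setting added after seeing the data, 6 were higher (15%, against 6.84% of all genes) and 2 lower (5%, against 5.63%) at the unadjusted threshold. The remaining CAF arrays then lay above all NDF arrays for 10 genes, or 25%, and below for 8, or 20%, against 11.8% and 19.7% of all genes. The median difference was 0.10 over the superfamily and -0.04 over all genes, and 0.03 and -0.08 without CAF replicate 3. The sign of the difference was the same without CAF replicate 3 for 36 of 40 genes and turned for Tnfrsf11b, Cd70, Tnfsf4 and Tnfrsf11a. Differences under 0.5 in size were seen for 27 of 40 genes, or 67.5%, against 79.9% of all genes. Those over 1 were seen for 7, or 17.5%, against 6.39% of all genes, with 4 higher and 3 lower in CAF.

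**Figure D2:**
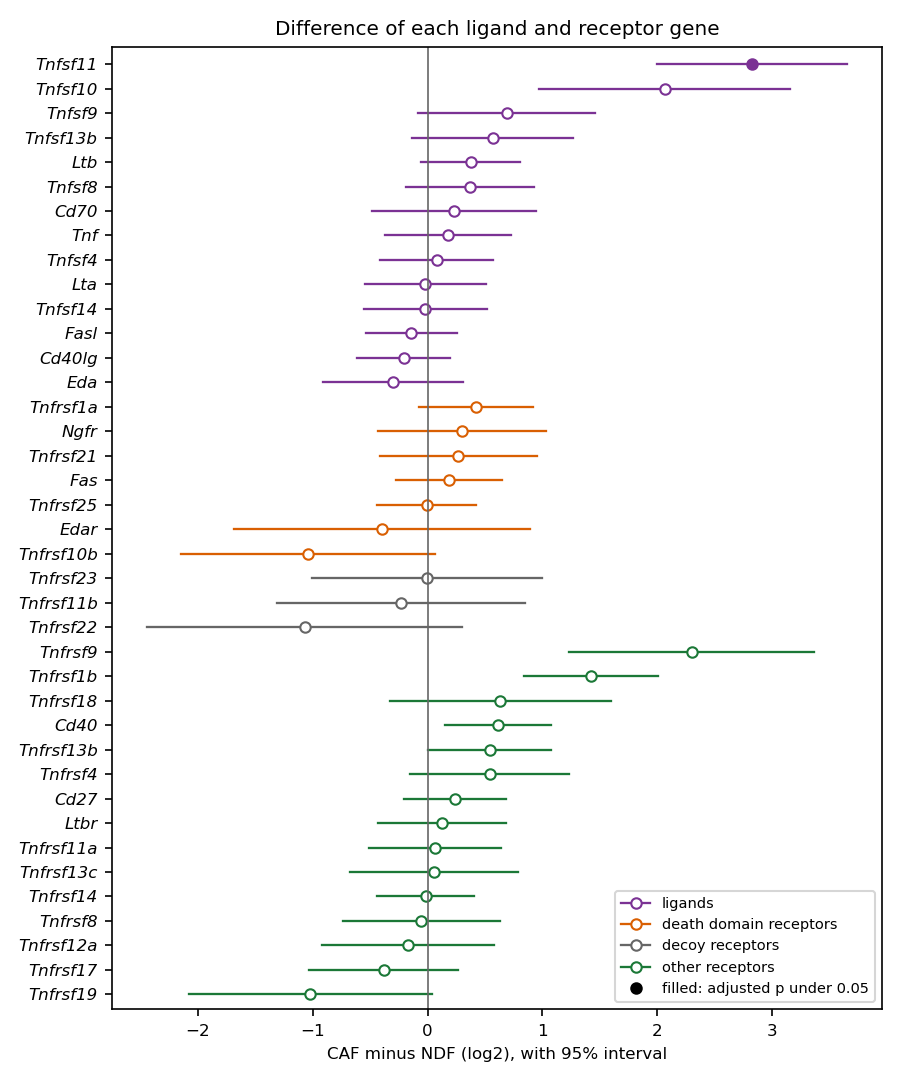
Difference CAF minus NDF on the log2 scale (x axis) with its 95% limma interval for the ligand and receptor genes (rows), grouped by role. Only Tnfsf11 at 2.82 is past the adjusted threshold (filled), and Tnfrsf9, Tnfsf10, Tnfrsf1b, Cd40 and Tnfrsf13b are the other genes whose interval lies above 0.

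Tnfsf11 encodes RANKL, the ligand that drives osteoclast formation and that also acts on dendritic cells in skin. It had 9.48, 9.89 and 9.77 on the CAF arrays, against 7.61, 6.29 and 6.78 on the NDF arrays. The groups were far apart, with the CAF arrays close together and the NDF arrays spread over more than a log2 unit. It averaged 9.72 ± 0.21 in CAF and 6.89 ± 0.67 in NDF (SD, n = 3 each), a difference of 2.82 ± 0.35 (SE) with a 95% interval of 2.00 to 3.65, or 7.08-fold on this scale (limma adjusted p = 0.0304). Its other probe set was at or under the olfactory level in both groups, at 3.34, 3.36 and 3.46 in CAF against 3.05, 3.17 and 3.06 in NDF. The CAF arrays lay above the NDF arrays there too, but by a mean of just 0.29, so the large change was seen on 1 probe set. The adjusted p was 0.0468 without CAF replicate 3 and 0.0464 without NDF replicate 1, but 0.0639, 0.0962, 0.114 and 0.173 without CAF replicate 1, CAF replicate 2, NDF replicate 2 and NDF replicate 3. It was 0.0572 when every probe set was tested on its own, a setting in which 0.162% of all probe sets passed. T cells and keratinocytes are also known sources of RANKL, and the mean levels of both marker lists were higher on the CAF arrays. Among the T cell receptor components, Cd3d, Cd3e and Cd3g differed by 1.76, 4.05 and 2.38 with no overlap, of which Cd3g passed (limma adjusted p = 0.0461), while Cd247 differed by -1.07. The T cell coreceptors Cd4 and Cd8a differed by -0.01 and -0.03. Their part in the Tnfsf11 level was not tested.

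The partners of RANKL did not pass the test. Tnfrsf11a, its signalling receptor RANK, had 3.43, 3.92 and 4.22 in CAF and 3.91, 3.65 and 3.82 in NDF, with means at or under the olfactory level in both groups. Tnfrsf11b encodes osteoprotegerin, the secreted decoy that binds RANKL, and had 7.14, 6.37 and 5.29 in CAF against 6.25, 6.53 and 6.74 in NDF. The groups overlapped, and CAF replicate 3 was the lowest of all 6 arrays. The difference was -0.23 (95% interval -1.31 to 0.84, limma adjusted p = 0.949), and 0.25 without CAF replicate 3. CAF replicate 1 lay above all NDF arrays, CAF replicate 2 among them and CAF replicate 3 below all of them.

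The second largest ligand difference was that of Tnfsf10, which encodes TRAIL, a ligand that can induce apoptosis and is induced by interferons. It had 5.43, 6.53 and 6.90 in CAF, against 4.82, 3.61 and 4.23 in NDF. All CAF arrays were above all NDF arrays, but each group spread over more than a log2 unit, and the difference of 2.07 ± 0.46 (SE) did not pass (limma adjusted p = 0.161). The difference was 1.76 without CAF replicate 3. Its other probe sets gave 0.92 and 0.93 with all arrays, and 0.42 and 1.55 without CAF replicate 3, which was the highest CAF array on one and the lowest on the other. The receptor genes Tnfrsf10b, Tnfrsf22 and Tnfrsf23 had differences at or below 0 with all arrays, but that of Tnfrsf23 changed sign under 5 alternative settings. Tnfrsf10b, the mouse death receptor for TRAIL, had 4.56, 4.34 and 3.21 in CAF against 4.69, 4.71 and 5.85 in NDF, with no overlap and a difference of -1.04 (adjusted p = 0.595). CAF replicate 3 and NDF replicate 3 lay farthest apart, and the difference was -0.63 without CAF replicate 3 and -0.66 without NDF replicate 3. A second probe set gave -0.03. Tnfrsf22, a mouse decoy receptor for TRAIL, had 6.35, 6.70 and 5.30 in CAF against 8.36, 6.59 and 6.61 in NDF, a difference of -1.07 that was -0.48 without NDF replicate 1 and -0.66 without CAF replicate 3 (adjusted p = 0.69 with all arrays). The related decoy Tnfrsf23 had 3.95, 3.84 and 4.997 in CAF and 4.96, 3.79 and 4.05 in NDF, and -0.0051 between the means (95% interval -1.01 to 1.00), or -0.37 without CAF replicate 3. None of these receptor differences passed, and they were not tested against that of Tnfsf10.

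Tnf itself, the founding ligand, was near the dim level in both groups. It had 3.99, 3.89 and 4.42 in CAF and 3.78, 3.76 and 4.22 in NDF, which gave 0.18 (95% interval -0.37 to 0.73, limma adjusted p = 0.91). The groups overlapped, and the difference was 0.02 without CAF replicate 3. The lymphotoxin genes Lta and Ltb, which are lymphocyte products, were at or under the olfactory level in both groups. Ltb averaged 3.68 ± 0.05 in CAF and 3.30 ± 0.20 in NDF (SD, n = 3 each), with all CAF arrays above, and Lta averaged 3.36 in CAF and 3.38 in NDF.

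Both receptors of TNF had every CAF array above every NDF array, and neither passed the test. Tnfrsf1b encodes TNFR2, the inducible receptor of immune and endothelial cells, which lacks a death domain. It had 7.97, 8.14 and 8.37 in CAF, against 7.10, 6.77 and 6.34 in NDF. The groups did not overlap, and the difference of 1.43 ± 0.25 (SE, 95% interval 0.84 to 2.01) missed the threshold (limma adjusted p = 0.0822). It was the only receptor under an adjusted p of 0.1, and with array quality weights it passed (1.399, adjusted p = 0.0228). Its other probe set ran the other way, at 4.40, 4.09 and 4.72 in CAF and 4.47, 4.998 and 4.84 in NDF, and the mean of both probe sets differed by 0.53 (adjusted p = 0.447). Tnfrsf1a encodes TNFR1, the widely expressed death domain receptor, and was well above the dim level on every array. It had 9.31, 8.80 and 9.37 in CAF against 8.72, 8.74 and 8.77 in NDF, which did not overlap, with a difference of 0.42 (adjusted p = 0.649). Ltbr, the lymphotoxin β receptor of stromal cells, averaged 7.03 in CAF and 6.90 in NDF (adjusted p = 0.947). The mean levels of the macrophage, endothelial and T cell lists, cells known to carry TNFR2, were higher on the same CAF arrays.

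Among the T cell costimulatory pairs, the receptor CD137, encoded by Tnfrsf9, showed the largest difference of any receptor. Tnfrsf9 had 6.12, 7.76 and 6.88 in CAF, against 5.17, 4.43 and 4.27 in NDF. All CAF arrays were above all NDF arrays, and the difference was 2.30 ± 0.45 (SE), or 4.92-fold on this scale, with a limma adjusted p of 0.116. Its other 2 probe sets were at or under the olfactory level and differed by 0.31 and 0.10, or -0.12 and -0.12 without CAF replicate 3, where the brightest gave 2.32. Its ligand gene Tnfsf9 had 6.28, 6.11 and 6.74 in CAF against 5.33, 5.404 and 6.33 in NDF, which overlapped, with a difference of 0.69 (adjusted p = 0.624). Tnfrsf4, the receptor OX40 of activated T cells, had 4.71, 4.82 and 5.67 in CAF and 4.31, 4.64 and 4.63 in NDF, with no overlap (0.54, adjusted p = 0.692), and the difference was 0.24 without CAF replicate 3. Tnfrsf18, the receptor GITR of regulatory T cells, differed by 0.63, with CAF replicate 3 at 5.96 and the other 5 arrays between 4.15 and 4.69 (adjusted p = 0.768), and by 0.17 without it. The ligand of OX40, Tnfsf4, and the T cell receptor Cd27 were at or under the olfactory level in both groups, and Cd70, the ligand of CD27, differed by 0.23, or -0.10 without CAF replicate 3. The mean level of the T and NK cell list was higher on the CAF arrays, as given above. Tnfrsf8, or CD30, and its ligand Tnfsf8 had differences of -0.05 (-0.32 without CAF replicate 3) and 0.37, and the herpesvirus entry mediator Tnfrsf14 one of -0.02. Tnfsf14 encodes LIGHT, a ligand of that mediator and of the lymphotoxin β receptor, and its probe sets disagreed. The brighter had 4.27, 3.88 and 4.56 in CAF and 4.12, 4.28 and 4.38 in NDF, a difference of -0.02, while the other had 3.90, 4.82 and 4.57 in CAF and 3.08, 3.47 and 3.57 in NDF, a difference of 1.06 (limma adjusted p = 0.391 over all probe sets).

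Cd40, the receptor through which T cells license antigen-presenting cells and which fibroblasts can also carry, was slightly higher in CAF on every probe set. The brightest of its 3 probe sets had 6.67, 6.70 and 6.55 in CAF, against 5.76, 6.24 and 6.08 in NDF. All 3 probe sets had every CAF array above every NDF array. The difference of 0.61 ± 0.19 (SE) did not pass (limma adjusted p = 0.368), and was 0.66 without CAF replicate 3. The other 2 probe sets gave 0.58 and 0.68 with all arrays but 0.21 and 0.26 without CAF replicate 3, which carried most of their difference. Its ligand Cd40lg, a product of activated T helper cells, had 4.47, 4.31 and 4.34 in CAF and 4.73, 4.48 and 4.53 in NDF, a difference of -0.21 with all CAF arrays below (adjusted p = 0.834).

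Genes of the B cell axis showed small differences. Tnfsf13b encodes BAFF, the B cell survival factor that stromal and myeloid cells make, and had 5.06, 5.23 and 4.33 in CAF against 4.65, 4.15 and 4.11 in NDF. The groups overlapped through CAF replicate 3, and the difference of 0.57 (limma adjusted p = 0.675) was 0.84 without that array (adjusted p = 0.189). Of its receptors, Tnfrsf13b (TACI) had 3.48, 3.74 and 3.70 in CAF and 3.48, 2.84 and 2.97 in NDF. Both of its means were at or under the olfactory level, and its unadjusted p of 0.0475 became an adjusted p of 0.551. Tnfrsf13c, the BAFF receptor, and Tnfrsf17, the plasma cell receptor BCMA, differed by 0.06 and -0.38. The 7 measured B cell and plasma cell markers overlapped between the groups, with means of 4.91 to 5.28 in CAF and 5.11 to 5.22 in NDF, and 3 of them were at or under the olfactory level.

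The receptors of hair follicle and ectodermal development depended on CAF replicate 3. Edar, the ectodysplasin receptor, had 7.34, 7.0002 and 9.07 in CAF, against 8.48, 8.33 and 7.78 in NDF. CAF replicate 3 was the highest of the 6 arrays and the other 2 CAF arrays were the lowest. The difference was -0.39 with all arrays (limma adjusted p = 0.92) and -1.03 without CAF replicate 3 (adjusted p = 0.174). Tnfrsf19, also called TROY, a receptor of hair follicles and other progenitor compartments, had 7.75, 6.79 and 8.63 in CAF against 8.62, 8.99 and 8.63 in NDF. Its difference was -1.02 with all arrays (adjusted p = 0.581) and -1.47 without CAF replicate 3 (adjusted p = 0.122), and its dimmer probe sets gave -0.02 and -0.22. The ligand Eda had 5.70, 5.27 and 5.49 in CAF and 5.51, 5.60 and 6.25 in NDF, with overlap. That difference was -0.30 with all arrays and -0.30 without CAF replicate 3. Its 4 other probe sets differed by between -0.14 and 0.01 with all arrays, and by between -0.34 and -0.18 without that array.

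The remaining death domain receptors were close between the groups. Fas, the receptor of Fas ligand, had 9.08, 8.86 and 8.62 in CAF and 8.75, 8.51 and 8.73 in NDF, which gave 0.19 (95% interval -0.28 to 0.65). Its ligand gene Fasl, a product of cytotoxic lymphocytes, was at or under the olfactory level in both groups. Tnfrsf21, or DR6, differed by 0.27 (0.07 without CAF replicate 3) and Tnfrsf25, or DR3, by -0.0088. Ngfr, the low-affinity neurotrophin receptor of nerve and Schwann cells, had 5.91, 5.32 and 6.41 in CAF and 5.38, 5.51 and 5.85 in NDF, a difference of 0.30 on its brightest probe set (0.03 without CAF replicate 3), while its others gave -0.13 and -0.42. Outside this class, Tnfrsf12a, the receptor Fn14 of the ligand TWEAK, averaged 7.49 ± 0.32 in CAF and 7.66 ± 0.53 in NDF (SD, n = 3 each). Its brightest and second probe sets differed by -0.17 and 0.06, or by -0.29 and -0.15 without CAF replicate 3. The opposite-strand transcript Tnfsf13os had 3.11, 3.22 and 3.49 in CAF and 3.77, 3.65 and 3.35 in NDF, at or under the olfactory level. For 22 of the 40 genes the 95% interval of the difference lay within 1 log2 unit of 0 on either side. For the others, such as Edar at -1.68 to 0.89, these arrays do not bound the difference to within 2-fold.

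**Figure D3:**
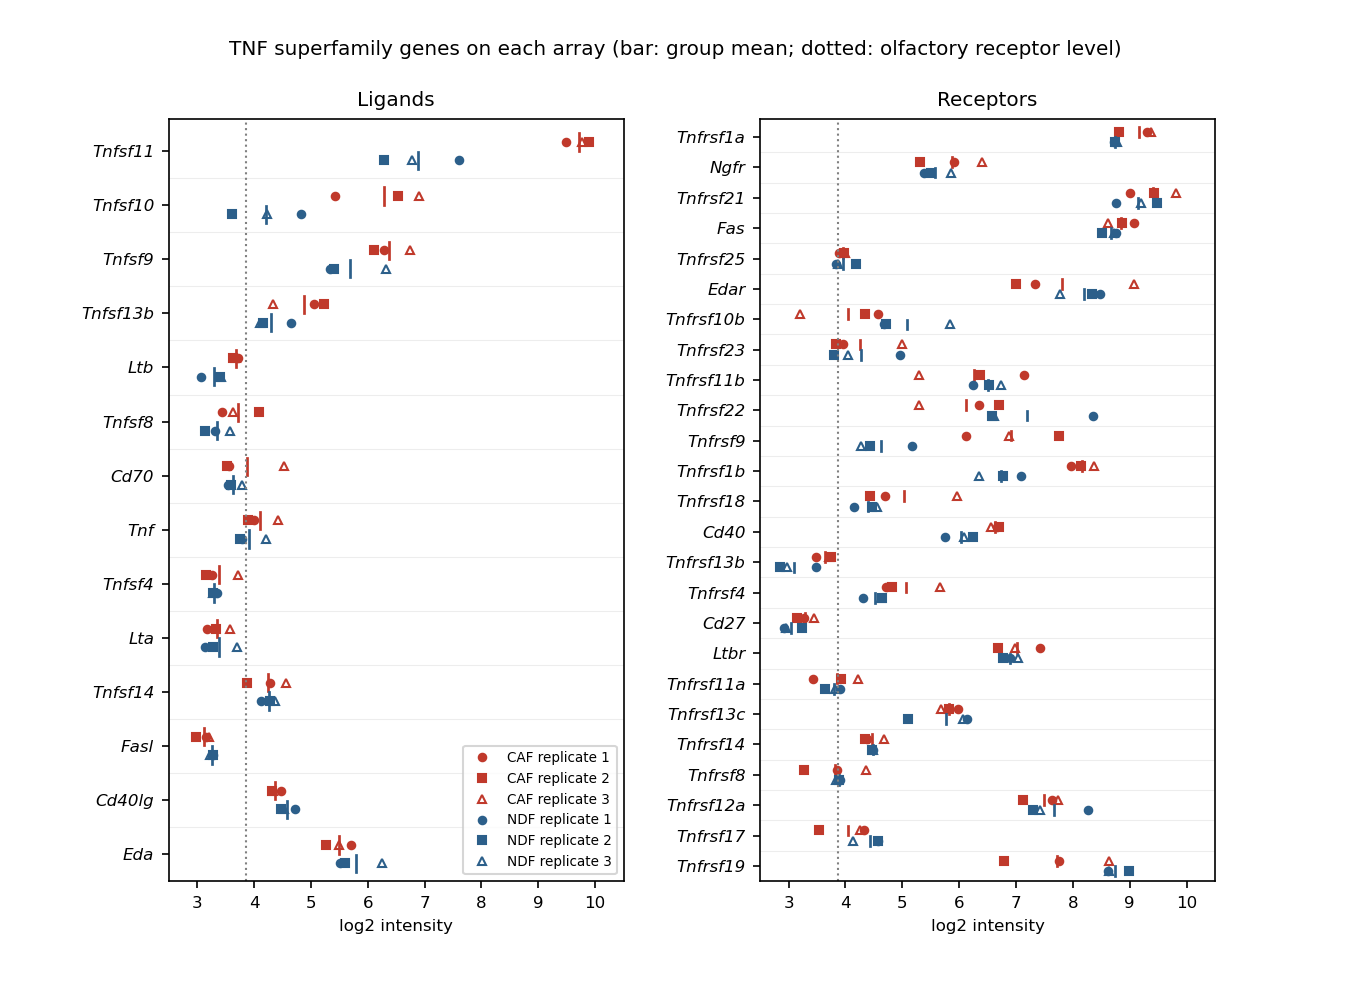
Log2 intensity (x axis) of each ligand gene (left panel) and receptor gene (right panel) on every array, with CAF in red above NDF in blue, bars at the group means and a dotted line at the olfactory receptor level of 3.86. Tnfsf11, Tnfsf10, Tnfrsf9 and Tnfrsf1b are separated between the groups, while Edar and Tnfrsf19 show CAF replicate 3 apart from the other CAF arrays.

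How far the probe sets of 1 gene agreed limits these readings. Of the 19 genes with several probe sets, 11 had the same sign on all of them with all arrays and 8 did not. Of the 29 probe sets not used for the gene values, 13 were at or under the olfactory level in both groups. Without CAF replicate 3 the signs came to agree for Eda, Fasl, Tnfrsf12a and Tnfsf13os, and came to differ for Tnfrsf9 and Tnfrsf11a. The plot of all probe sets of 6 genes shows both cases. Cd40 and Tnfsf10 had higher CAF means on each of their probe sets, though by much less on some without CAF replicate 3. The large differences of Tnfrsf9 and Tnfsf11 rested on the brightest one, while Tnfrsf1b and Tnfsf14 had probe sets of opposite sign.

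**Figure D4:**
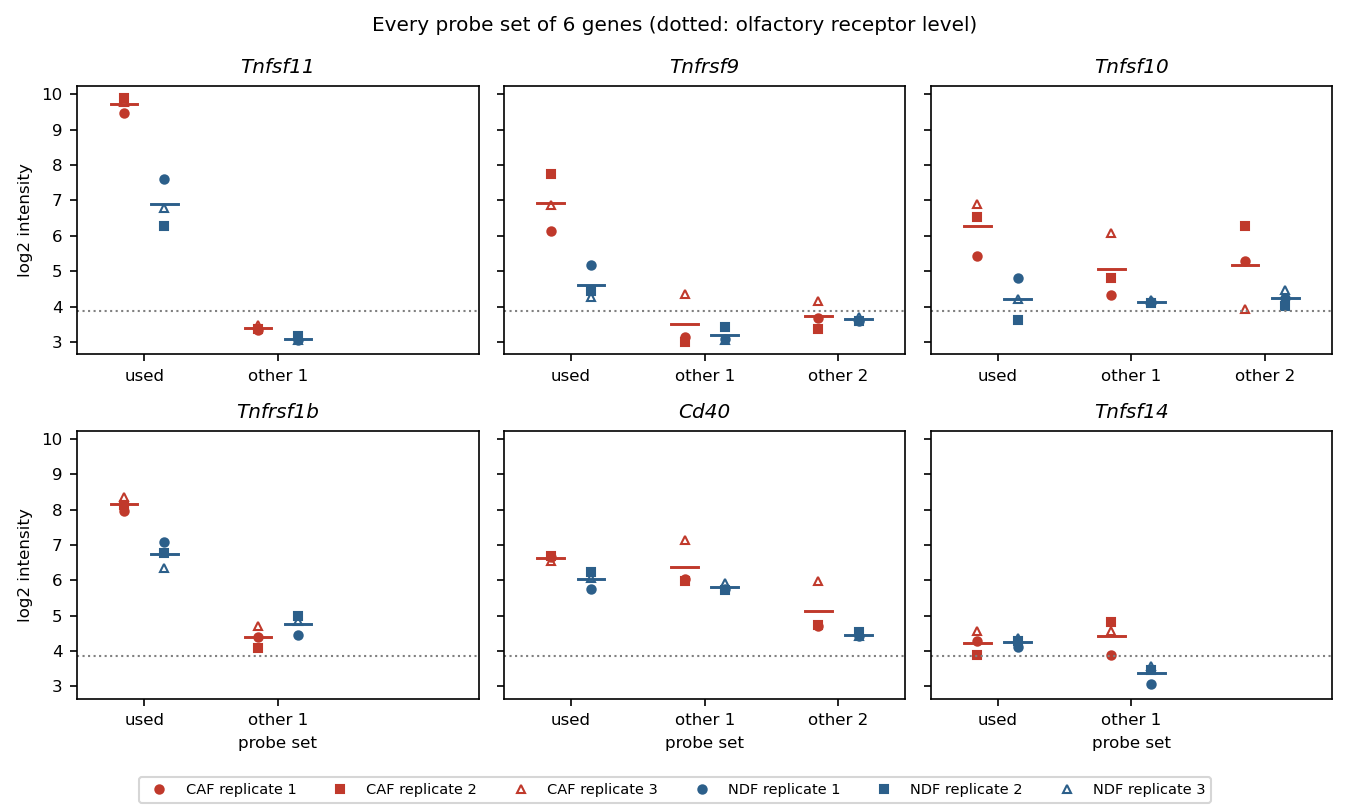
Log2 intensity (y axis) of every probe set of Tnfsf11, Tnfrsf9, Tnfsf10, Tnfrsf1b, Cd40 and Tnfsf14 on each array, with CAF in red left of NDF in blue and bars at the group means. The probe set used is the one with the highest mean, and the dotted line is the olfactory receptor level of 3.86. The other probe sets of Tnfsf11 and Tnfrsf9 lie at or under that line in the group means.

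No gene of the signalling list passed the limma test. Besides genes downstream of the receptors, it included the receptor genes Relt and Eda2r and the shedding genes Adam17 and Rhbdf2. The list held 38 measured genes, of which 3, or 7.89%, were higher and none lower at an unadjusted p under 0.05, against 4.93% and 4.02% of all genes. With array quality weights 2, or 5.26%, passed, against 2.41% of all genes. Their median difference was 0.06, against -0.04 over all genes. The 3 genes were all of the feedback and processing part. Tnfaip3, which encodes A20, a deubiquitinase that dampens NF-κB and is itself induced by it, had 7.17, 8.23 and 7.74 in CAF, against 6.32, 6.001 and 5.94 in NDF. The groups were well apart, and the difference was 1.63, or 3.09-fold on this scale (adjusted p = 0.0947). Tnfaip2, a TNF-induced gene, had 11.01, 11.43 and 10.35 in CAF against 9.60, 10.11 and 10.13 in NDF (0.99, adjusted p = 0.38). Nfkbia, the inhibitor IκBα and a direct NF-κB target, had 13.06, 13.31 and 13.21 in CAF against 12.48, 12.90 and 12.72 in NDF (0.49, adjusted p = 0.506). Each of these 3 had all CAF arrays above all NDF arrays. Over the 38 genes this held for 5, and 2, Tnfaip8 and Tradd, had all CAF arrays below. Of all genes, 6.78% lay above and 8.66% below. Tnfaip8 differed by -0.70, or -0.23 without CAF replicate 3. Of the 24 signal transducers none reached even the unadjusted threshold with all arrays. Several genes depended on CAF replicate 3. Without it, Birc3, Mlkl and Birc2 went from 0.49, 0.41 and 0.23 to 0.95, 0.86 and 0.76. Sharpin went from -0.73 to 0.29, and Fadd from -0.23 to -0.91. In the feedback part, Nfkbie went from 0.28 to 1.22, Tnip1 from 0.60 to 0.19 and Eda2r from -0.06 to -0.80. No signalling gene passed without that array either. Tank, a TRAF-binding regulator, differed by 0.68 through CAF replicate 3 at 7.47, with the other CAF arrays at 6.26 and 6.16 and NDF between 5.83 and 6.07, and by 0.26 without that array. Tradd, the adaptor of TNFR1, had 9.94, 9.79 and 9.61 in CAF and 9.97, 10.23 and 10.08 in NDF, and Ripk3, the kinase of necroptosis, had 7.48, 7.45 and 7.45 in CAF and 7.55, 6.64 and 6.89 in NDF.

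The start site regions of the superfamily and signalling genes were read for the NF-κB consensus, since the series is about that factor. The windows are the 250 bases before each start in the RefSeq promoter table (GRCm38.p6). The consensus was searched on both strands, overlapping matches counted once per gene, and a gene with several listed starts had more windows. A match stood in 4 of the 31 superfamily genes in that table, or 12.9%, and in 8 of 33 signalling genes, or 24.2%, against 10.1% of the array genes in the table. The 4 superfamily genes were Ltb, Tnfrsf8, Tnfrsf9 and Tnfrsf25. The 8 signalling genes include Nfkbia and Tnfaip3, known NF-κB targets that were put on that list by choice. Its share therefore cannot be read as a finding against that of all genes. Shown 5′ to 3′ with matches in capitals are Tnfsf11, the gene that passed, Tnfsf10, Tnfrsf9 and Tnfrsf1b, the other superfamily genes higher by over 1, and the feedback gene Tnfaip3. They lie at chr14:78308044-78308293 (minus strand), chr3:27316827-27317076 (plus strand), chr4:150927749-150927998 (plus strand), chr4:145246871-145247120 (minus strand) and chr10:19015411-19015660 (minus strand).
Tnfsf11: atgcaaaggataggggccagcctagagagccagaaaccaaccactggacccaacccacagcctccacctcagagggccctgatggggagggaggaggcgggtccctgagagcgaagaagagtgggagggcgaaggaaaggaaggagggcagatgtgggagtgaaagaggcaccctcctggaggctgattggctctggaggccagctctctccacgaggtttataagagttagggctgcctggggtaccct
Tnfsf10: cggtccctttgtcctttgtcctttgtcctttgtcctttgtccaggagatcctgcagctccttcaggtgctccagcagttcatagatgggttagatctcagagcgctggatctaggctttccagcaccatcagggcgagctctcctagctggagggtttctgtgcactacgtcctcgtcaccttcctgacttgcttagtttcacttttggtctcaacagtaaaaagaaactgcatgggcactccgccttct
Tnfrsf9: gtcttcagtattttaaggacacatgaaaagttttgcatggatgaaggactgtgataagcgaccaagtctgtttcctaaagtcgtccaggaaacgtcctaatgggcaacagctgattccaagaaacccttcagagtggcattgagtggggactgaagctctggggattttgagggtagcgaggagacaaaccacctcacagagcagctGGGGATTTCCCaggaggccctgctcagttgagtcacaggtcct
Tnfrsf1b: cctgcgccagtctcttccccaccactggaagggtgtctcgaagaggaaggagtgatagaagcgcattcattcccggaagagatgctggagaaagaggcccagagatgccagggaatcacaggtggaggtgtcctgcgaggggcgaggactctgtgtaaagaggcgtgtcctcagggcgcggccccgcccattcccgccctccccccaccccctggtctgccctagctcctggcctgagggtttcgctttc
Tnfaip3: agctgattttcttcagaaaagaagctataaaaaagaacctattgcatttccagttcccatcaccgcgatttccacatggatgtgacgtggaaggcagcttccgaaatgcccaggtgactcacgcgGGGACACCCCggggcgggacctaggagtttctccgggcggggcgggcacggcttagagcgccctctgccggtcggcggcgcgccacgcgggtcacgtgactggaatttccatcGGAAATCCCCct
Tnfsf11, Tnfsf10 and Tnfrsf1b held no match in this window, Tnfrsf9 held 2 that overlap at -43 and -42 bases from the start, and Tnfaip3 held 2 at -125 and -12. Tnfrsf9 and Tnfaip3 each have another listed start whose window held none. A match describes these letters only, and no match says nothing about the factor.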

How the data were processed

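RNA of sorted PDGFRα-positive fibroblasts was hybridised to 6 arrays, 3 of CAF and 3 of NDF, grouped by the sample titles. The deposited values are log2 intensities (range 2.20 to 14.60); GCOS and RMA are named, per the submitters' processing notes, with versions and genome build not given in the sources used here. RMA subtracts background, normalises between arrays and summarises probes, which compresses dim values and understates their differences. No detection calls were used.

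Of 45037 non-control probe sets, 34945 name 1 gene in the platform annotation, 932 name several and 9160 are not in that table. Gene identifiers of 34741 matched RefSeq (GRCm38.p6), with 0 symbols updated. Each gene is represented by its brightest probe set, on average over the 6 arrays. The 5 listed family genes without a single-gene probe set were not analysed here.

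The CAF minus NDF difference was fitted in R 4.3.3 with limma 3.58.1 (eBayes after lmFit, two-sided, no covariates) over all 18193 genes, with Benjamini-Hochberg adjustment and a threshold of 0.05. Figures used matplotlib 3.10.9 in Python 3.11.15. The procedure was tested on simulated data. The labels do not say whether array numbers pair the samples. The deviations of same-numbered arrays correlated at -0.14, 0.14 and -0.04, which so few arrays cannot settle.

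The members and lists were chosen with earlier results of these data known. Every member is named; values per array go to members past the threshold or at an unadjusted p under 0.05, to the 3 with the smallest p of each role and to those whose probe sets differ in sign and by over 1 log2 unit, and from the signalling list to the 3 with the smallest p of each part. Values per array of other members were added after they were seen. Alternatives covered normalisation, filters, probe set choice, variance model, array weights, threshold, a replicate block and leaving out each array; values of single probe sets and signalling genes without CAF replicate 3 were added after seeing the data.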

Additional observations from a re-analysis of the deposited data

How the results depend on the processing

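The superfamily count of 1, Tnfsf11, was 0 when every probe set was tested on its own and 0 with the replicate block (adjusted p = 0.12), 2 with array quality weights and 2 at an adjusted p under 0.1, and 0 to 1 when an array was left out. The Tnfsf11 difference was between 1.56 and 3.18 and its adjusted p between 0.00674 and 0.173 over the alternatives run. For signalling genes, 0 in the main setting, the count was 2 with array quality weights and 1 at an adjusted p under 0.1. Over all genes, 94 became 59 with every probe set on its own, 155 with an intensity trend, 438 with array quality weights, 198 at an adjusted p under 0.1, 20 with the replicate block, and 5 to 156 when an array was left out (5 without NDF replicate 3, 8 without NDF replicate 2, 11 without NDF replicate 1, 40 without CAF replicate 2 and 156 without CAF replicate 3). Whether the array numbers pair the samples is not known, so it is also not known whether the block is the better model. The superfamily median of 0.10 was -0.02 with array quality weights, which give CAF replicate 3 a weight of 0.17. Without CAF replicate 3 the superfamily genes with no overlap numbered 18, with 10 above (11.8% of all genes) and 8 below (19.7% of all genes), in place of 8 and 3. Of 278 values of 15 named genes under alternatives, 255 kept direction and side of the threshold and 15 reversed, all in genes that did not pass. Of the rest, 6 lost the threshold, all of Tnfsf11, and 2 of Tnfrsf1b came under it. Tnfsf11 kept its call in 12 of 18 alternatives at the threshold of 0.05. No other named gene had passed, so for those the same side meant staying above the threshold. Ngfr was -0.0840 with the mean of its probe sets and -0.42 when its probe set with the smallest p stood for it. Tnfrsf11b was 0.31 with array quality weights and -0.67 to 0.25 when an array was left out. Tnfrsf23 was 0.0337 on quantile normalisation, 0.0085 on cyclic loess and -0.37 to 0.34 when an array was left out. Tnfsf13os was 0.0327 with the mean of its probe sets. Tnfsf14 was 0.0058 on quantile normalisation, 0.52 with the mean of its probe sets, 1.06 with each on its own and -0.18 to 0.16 when an array was left out. The cause was not tested. Dim probe sets limit what could be seen for the 9 genes at or under the olfactory level. The filters on dim probe sets left 29 superfamily genes above the olfactory level and 18 at or above the median probe set. Of the named genes, Tnfrsf13b and Tnfsf13os had no value under either filter. Tnfrsf10b, Tnfrsf23 and Tnfsf14 had none under the filter at the median.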
